A study of Homo sapiens with 12 samples.

Results

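The subject is the set of dCas9 peaks on chromosome 17. They were taken as every row of the 9 deposited peak lists whose chromosome is 17 in the human genome build hg19, which gave 4547 of 58042 peaks. The peaks come from chromatin immunoprecipitation sequencing (ChIP-seq) of HEK 293T cells (a line derived from human embryonic kidney) transfected with dCas9 and a single guide RNA (sgRNA) and collected 3 days later. Chromatin was pulled down through the HA tag in every library. There were 2 replicates for each of the guides sgRNA1 to sgRNA3 and a single library for each of sgRNA4 to sgRNA6, so that no replicate error can be given for the latter. The library of dCas9 without sgRNA and the wild-type Cas9 amplicon samples were not analysed here, so the background without a guide is not known at any peak.

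dCas9 is a form of Cas9 that binds DNA without cutting it. The guide RNA leads it to sequences that pair with the guide and lie next to a short protospacer adjacent motif (PAM), and partial pairing next to the PAM can be enough for binding. Chromosome 17 is known as a gene-dense human chromosome, and its short arm carries blocks of duplicated sequence near the centromere. The study asked where each guide brings dCas9 besides its intended target. The peaks are named by position, since no gene annotation or genome sequence of hg19 was used here, and the guides' own sequences were not analysed here either.

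Peaks were 2.65 to 3.36 times as dense on chromosome 17 as on the other 22 chromosomes, for all 6 guides with replicates merged. With sgRNA6 there were 31.99 peaks per Mb on chromosome 17 and 10.5 elsewhere. With sgRNA4 the values were 14.2 and 4.23 peaks per Mb, and with sgRNA5 7.74 and 2.61. The shorter lists differed in the same direction: 1.12 against 0.423 peaks per Mb for sgRNA1, 0.530 against 0.193 for sgRNA2 and 0.345 against 0.128 for sgRNA3. By density in the merged lists, chromosome 17 ranked first of 23 chromosomes for sgRNA2 and sgRNA3 and 2 for the other 4 guides. By library it ranked 16 in sgRNA2 replicate 1, where the density was 0.638 times that elsewhere, and 4 and 2 in the sgRNA3 replicates. Read depth is unknown for every library, so the densities do not rank the guides.

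By library, chromosome 17 held 6 of 96 peaks in sgRNA1 replicate 1 and 89 of 1278 in replicate 2, which are 6.25% (exact binomial 95% interval 2.33 to 13.1) and 6.96% (5.63 to 8.50). sgRNA2 had 1 of 58 peaks there in replicate 1, or 1.72% (0.0436 to 9.24), and 42 of 570 in replicate 2, or 7.37% (5.36 to 9.83). sgRNA3 had 2 of 41 in replicate 1, or 4.88% (0.596 to 16.5), and 26 of 382 in replicate 2, or 6.81% (4.49 to 9.81). The replicate 1 lists thus hold too few peaks on this chromosome to give a share with any precision. The share was 8.47% of 13655 peaks with sgRNA4 (8.004 to 8.95), 7.53% of 8345 with sgRNA5 (6.97 to 8.11) and 7.73% of 33575 with sgRNA6 (7.45 to 8.03). These intervals cover counting error only.

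Chromosome 17 makes up 2.68% of the length, with the last peak found in any library taken as the end of each chromosome. The share of peaks exceeded this by 4.73 ± 0.636 percentage points (SD, n = 6 guides) and was higher in 6 of 6 guides (exact sign-flip permutation test, two-sided, p = 0.03125, the smallest that 64 sign patterns allow). Adjusted over the 5 tests of this kind by Benjamini-Hochberg, the exact p was 0.0521 and no longer below 0.05. All guides were used in the same cell line and shared many peaks, so the 6 values may not be independent, as the test assumes. Without replicate 2 of sgRNA1, sgRNA2 and sgRNA3 the mean fell to 3.42 points and the exact p rose to 0.0625, where sgRNA2 replicate 1, with 1 peak, lay below the length share. Among peaks that overlapped no peak of another guide the mean was 3.08 points (exact p = 0.0625).

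**Figure D1:**
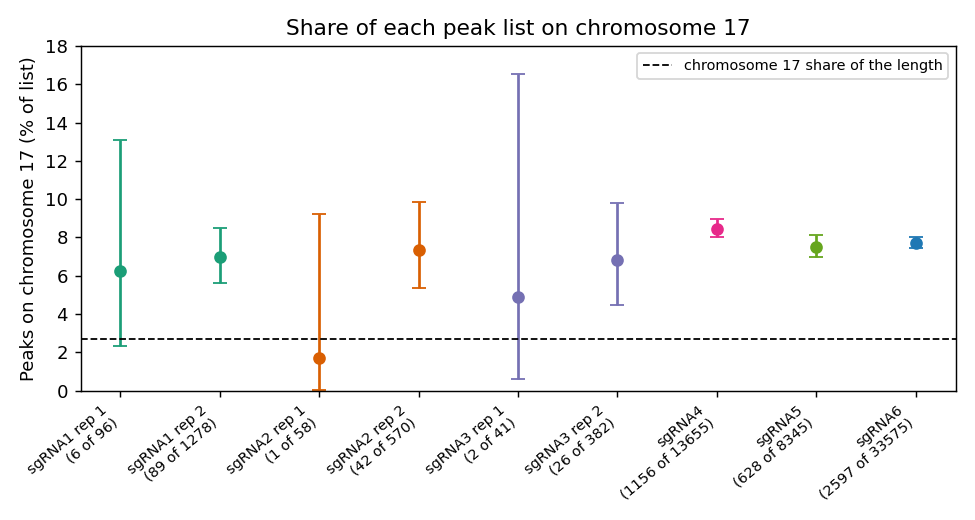
Percent of each list's peaks that lie on chromosome 17 (vertical axis) for the 9 libraries (horizontal axis, with peak numbers); bars are exact binomial 95% intervals and the dashed line is the chromosome's share of the length, 2.68%. The libraries with over 300 peaks lie between 6.81% and 8.47%, and sgRNA2 replicate 1, with 1 peak, lies at 1.72%.

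A difference in this share among the replicated guides was not detected, but the test could not have called a difference at p below 0.05. Mean shares were 6.61 ± 0.505% (sgRNA1), 4.55 ± 3.99% (sgRNA2) and 5.84 ± 1.36% (sgRNA3), with the SD over n = 2 libraries (exact permutation test, p = 0.933, where 15 arrangements allow no p below 0.0667). In all 3 guides the longer list, replicate 2, had the higher share. The labels do not say that replicates came from separate cultures, so this spread may be technical.

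Chromosome 1 had 0.919, 0.425, 0.321, 6.61, 4.39 and 15.7 peaks per Mb with sgRNA1 to sgRNA6 in that order. Each was below the value of chromosome 17, and this was not tested. Among single chromosomes, chromosome 17 was tested against 19 and 22 only. Chromosome 17 was less dense than chromosome 19 with sgRNA4, sgRNA5 and sgRNA6, by 0.33, 0.25 and 0.27 on the log2 scale of peaks per Mb. It was denser than chromosome 19 with sgRNA2, by 0.51. Over the 6 guides the difference from chromosome 19 was -0.06 ± 0.31 (SD; exact sign-flip permutation test, p = 0.594). Against chromosome 22, chromosome 17 was denser in 6 of 6 guides, by 0.48 ± 0.18 on the log2 scale (exact p = 0.03125; 0.0938 adjusted over 6 comparisons with these chromosomes).

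Along the chromosome, the 3 long lists had their full and their sparse bins in the same stretches. The arms were taken as the sides of the longest stretch without a peak in any list, chr17:22012863-25431554, which spans 3.42 Mb; the centromere of this chromosome is known to lie there. The short arm then measured 22.01 Mb and the long arm 55.7 Mb. The short arm, 28.3% of the length of both arms, held 297 of 1156 peaks with sgRNA4 (25.7%, 95% interval 23.2 to 28.3), 185 of 628 with sgRNA5 (29.5%, 25.9 to 33.2) and 694 of 2597 with sgRNA6 (26.7%, 25.03 to 28.5). It held 27 of 91 peaks of sgRNA1 (29.7%, 20.5 to 40.2), 10 of 43 of sgRNA2 (23.3%, 11.8 to 38.6) and 11 of 28 of sgRNA3 (39.3%, 21.5 to 59.4). The difference from the length share was 0.705 ± 5.58 points (SD, n = 6), above 0 in 3 of 6 guides (exact sign-flip permutation test, p = 0.875), so a preference for an arm was not detected. The direction turned without replicate 2 (-9.11 points) and without sgRNA3 (-1.35 points).

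Within the arms the density was far from even. Joined over all guides, the chromosome 17 peaks formed 3315 regions, with a median of 31.5 regions per 1 Mb bin against 7 in the 2966 bins of the other chromosomes. The 8 densest of the 82 bins held 25.8% of the regions. The bin with the most regions was that from 79 to 80 Mb, near the end of the long arm, with 171; of all bins of the other chromosomes, 1 held more. It was followed by the bins from 77 to 78 Mb with 117 regions, from 48 to 49 Mb with 108, from 80 to 81 Mb with 95, and, equal at 92, from 7 to 8 Mb and from 18 to 19 Mb. The bin from 79 to 80 Mb was also the fullest with sgRNA4 (81 peaks), sgRNA6 (124) and sgRNA2 (5). It held 23 peaks with sgRNA5, and 1 each with sgRNA1 and sgRNA3.

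Each guide also had its own order of bins. With sgRNA4 the next bins were those from 18 to 19 Mb with 40 peaks and from 48 to 49 Mb with 38, and with sgRNA6 those from 77 to 78 Mb with 90 and from 48 to 49 Mb with 85. With sgRNA5 the bin from 79 to 80 Mb, with 23, came just below the fullest. These were the bins from 46 to 47 Mb with 25 and from 19 to 20 Mb with 24. The latter bin, on the short arm, was the fullest for sgRNA3 with 4 of its 28 peaks, and it was shared as the fullest by sgRNA1 with 5, equal to the bin from 47 to 48 Mb. The number of peaks there was small for these guides, and no test was made between bins.

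The stretches with the most and the fewest peaks were marked out after the values were seen and are given as a description. From 70 Mb to the end, 13.8% of the length held 29.3% of the regions, or 80.8 per bin. The stretch from 35 to 49 Mb held 62.4 regions per bin, that from 0 to 9 Mb 53.7, and that from 15 to 22 Mb on the short arm 50.7. Between them lay stretches with few regions: 7.83 per bin from 9 to 15 Mb and 5.67 per bin from 49 to 55 Mb. In that last stretch the bin from 51 to 52 Mb was empty in every list. The stretch from 15 to 22 Mb took 28.6% of sgRNA3 peaks, 17.6% of sgRNA1 peaks and 16.3% of sgRNA2 peaks, against 11.7, 14.0 and 10.5% for sgRNA4, sgRNA5 and sgRNA6. For sgRNA3 these were 8 peaks.

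**Figure D2:**
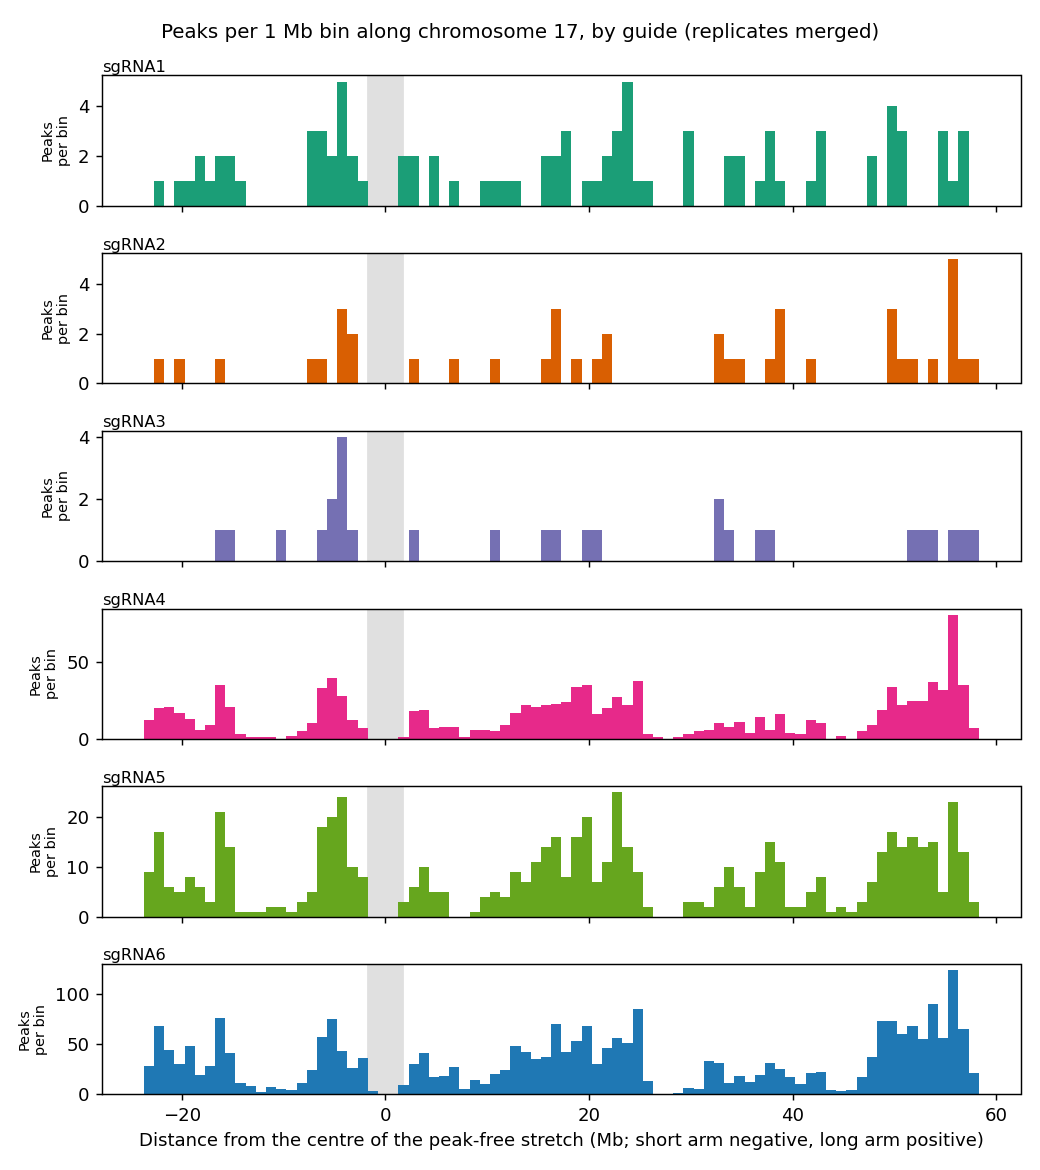
Number of peaks per 1 Mb bin (vertical axes, a scale for each guide) by distance in Mb from the centre of the peak-free stretch (grey band), short arm to the left, for the 6 guides with replicates merged. The 3 long lists share their high and low stretches, with the highest bar of sgRNA4 (81) and sgRNA6 (124) near the right end, while that of sgRNA5 (25) lies in the middle of the long arm.

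Across the 82 bins, peak numbers of sgRNA4 and sgRNA6 had a Spearman correlation of 0.941, those of sgRNA4 and sgRNA5 0.888 and those of sgRNA5 and sgRNA6 0.872. Pairs that include sgRNA1, sgRNA2 or sgRNA3 gave 0.236 to 0.537, with between 23 and 46 bins occupied by these guides. Both counts of a bin come from the same stretch of sequence, and numbers depend on list length, so the values are a description and carry no p.

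In score, the chromosome 17 peaks lay in the middle of their lists. The score is the authors' MACS value per peak; it depends on the depth of its own library, so only its rank within the list was used. The median percentile (100 is the highest score) was 51.6 with sgRNA4, 49.01 with sgRNA5 and 50.3 with sgRNA6. It was 51.0 for sgRNA1, 48.1 for sgRNA2 and 58.2 for sgRNA3, with the peaks of both replicates pooled. Less the median of the other chromosomes, the percentile was 1.39 ± 3.80 points (SD, n = 6), above 0 in 4 of 6 guides (exact sign-flip permutation test, p = 0.5625). A shift in score was thus not detected, and without sgRNA3, whose value rests on 28 peaks, the mean was -0.0352.

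The highest scores gave much the same picture. Of the sgRNA4 peaks on chromosome 17, 115 (9.95%) were among the highest 10% of scores, where the whole list has 10% by construction. The counts were 74 (11.8%) for sgRNA5 and 289 (11.1%) for sgRNA6, both against 10%. In the replicate 2 lists they were 14 of 89 for sgRNA1 (15.7% against 10%), 5 of 42 for sgRNA2 (11.9% against 10%) and 3 of 26 for sgRNA3 (11.5% against 10.2%). Per decile of score, the chromosome 17 share ran from 6.98 to 10.7% with sgRNA4, from 4.80 to 8.86% with sgRNA5 and from 6.85 to 8.61% with sgRNA6, with no steady trend.

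**Figure D3:**
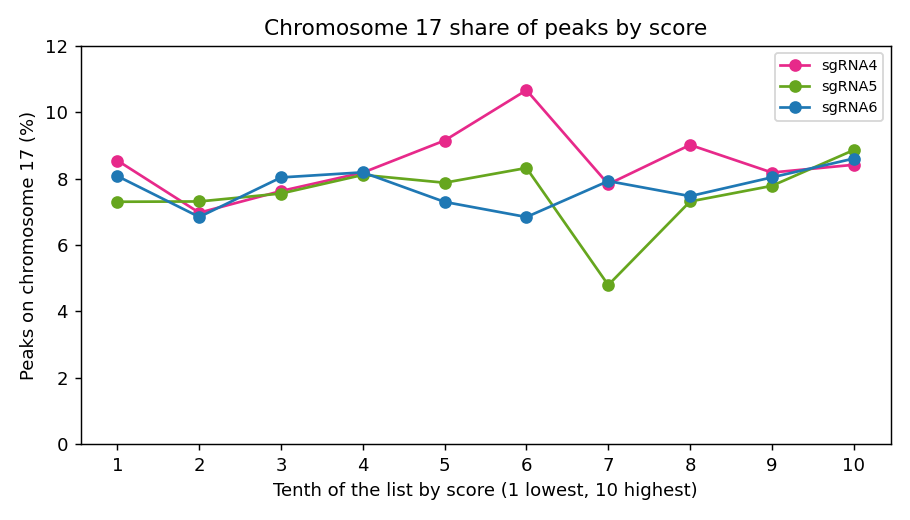
Percent of peaks on chromosome 17 (vertical axis) in each decile of the list by score (horizontal axis, 1 lowest, 10 highest) for sgRNA4, sgRNA5 and sgRNA6, 1 library each. The lines stay between 4.80% and 10.7% with no steady rise or fall.

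The peaks were wider than those of the other chromosomes pooled. Median width was 831 bp on chromosome 17 and 744 bp on the other chromosomes with sgRNA4, 693 and 624 bp with sgRNA5, and 743 and 664 bp with sgRNA6. With both replicates pooled it was 779 and 698 bp for sgRNA1, 972 and 782 bp for sgRNA2 and 794.5 and 662 bp for sgRNA3. As a percentile of width within the list, chromosome 17 was higher in 6 of 6 guides, by 14.7 ± 3.99 points (SD; exact sign-flip permutation test, p = 0.03125, the smallest possible; 0.0521 adjusted over the 5 tests).

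Without replicate 2 of the replicated guides the mean width difference turned to -0.781 points and was above 0 in 4 of 6 guides (exact p = 0.875). The replicate 1 values were 25.5 points for sgRNA1 with 6 peaks, -25.9 for sgRNA2 with 1 peak and -39.0 for sgRNA3 with 2 peaks. In the 3 guides with 1 library it was 12.1, 11.001 and 11.6 points. Restricted to bins with 20 or more regions, a setting chosen after the data were seen (55 bins on chromosome 17 and 599 elsewhere), it was 12.0 points over the 6 guides (exact p = 0.03125). Among peaks overlapping no other guide it was 13.9, 7.16 and 12.1 points for sgRNA4, sgRNA5 and sgRNA6 and 7.54 for sgRNA1. There it was -32.1 for sgRNA2 and -27.6 for sgRNA3, whose merged lists held 1 and 4 such peaks on chromosome 17. The width percentile also exceeded that of chromosome 19 in 6 of 6 guides, by 15.2 ± 8.09 points (SD; exact sign-flip permutation test, p = 0.03125; 0.0938 adjusted over 6), and against chromosome 22 the difference was 4.10 ± 8.50 points (exact p = 0.3125).

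**Figure D4:**
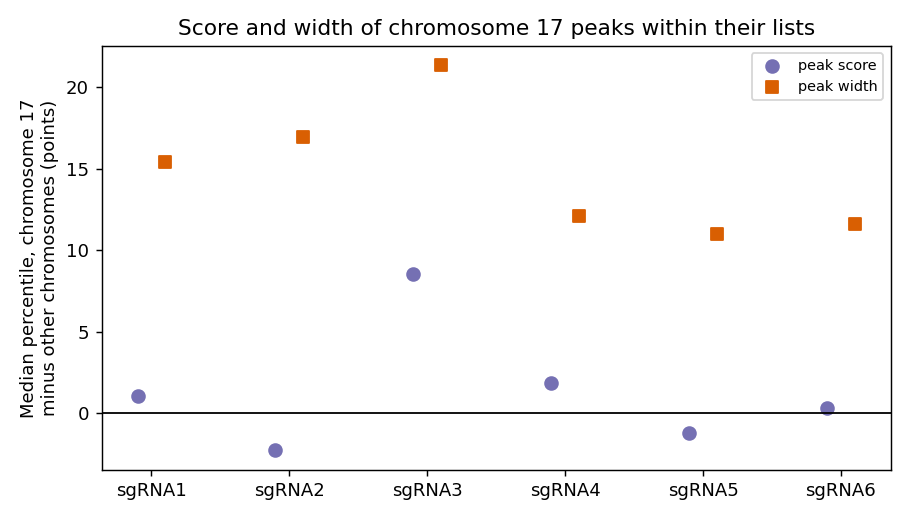
Median percentile within the list on chromosome 17 less that on the other chromosomes, in points (vertical axis), for peak score (circles) and peak width (squares) in the 6 guides. All squares lie between 11.001 and 21.3, whereas the circles lie on both sides of 0, from -2.28 to 8.51.

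Overlap between guides was somewhat more frequent on chromosome 17 than on the other chromosomes pooled. An overlap meant 1 or more shared bp. By share of overlapping peaks, chromosome 17 ranked 12, 4, 5, 6, 1 and 3 of 23 chromosomes for sgRNA1 to sgRNA6. Chromosome 1 was close, with 86.0, 95.3, 83.75, 55.9, 68.6 and 29.7% in that order. Chromosome 6 was above chromosome 17 with sgRNA3, sgRNA4 and sgRNA6 and below it with the other guides. With sgRNA5, 451 of 628 chromosome 17 peaks (71.8%, 95% interval 68.1 to 75.3) overlapped a peak of another guide, against 65.1% over the whole list. With sgRNA4 the count was 641 of 1156 (55.4%, 52.5 to 58.3) against 53.1%, and with sgRNA6 775 of 2597 (29.8%, 28.1 to 31.6) against 27.1%. sgRNA1 had 78 of 91 (85.7%, 76.8 to 92.2) against 84.6%, sgRNA2 42 of 43 (97.7%, 87.7 to 99.9) against 92.2%, and sgRNA3 24 of 28 (85.7%, 67.3 to 96.0) against 78.6%. For sgRNA1 to sgRNA4 the whole-list share lies inside the interval of the chromosome 17 share, so their differences are within counting error.

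Against the other chromosomes, the overlap share was higher by 4.59 ± 2.71 points (SD, n = 6), in 6 of 6 guides (exact sign-flip permutation test, p = 0.03125; 0.0521 adjusted over the 5 tests). The 6 values are not independent, because each guide is a partner of the others. When peak centres had to lie within 500 bp the mean was 2.85 points (exact p = 0.0625), and among the higher-scoring 50% of each list it was 2.54 (exact p = 0.09375). Without replicate 2 of the replicated guides it was 11.2 points (exact p = 0.03125), with 6 sgRNA1 peaks, 1 sgRNA2 peak and 2 sgRNA3 peaks left. Peaks of other guides covered more of chromosome 17 too: for sgRNA5 3.47% of its length against 0.992% elsewhere, for sgRNA4 2.98 against 0.879%, and for sgRNA6 1.70 against 0.479%. The part of this coverage and of peak width in the overlap was not tested. Against chromosome 19 the overlap share differed by 1.08 ± 3.5004 points (exact sign-flip permutation test, p = 0.5) and against chromosome 22 by 2.56 ± 8.82 (exact p = 0.5).

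**Figure D5:**
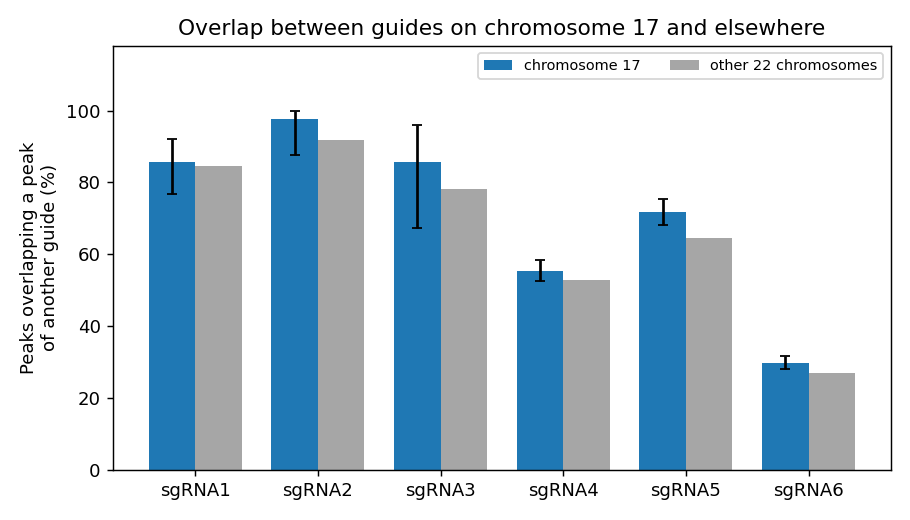
Percent of peaks that overlap a peak of another guide (vertical axis) on chromosome 17 (blue, with exact binomial 95% intervals) and on the other 22 chromosomes (grey) for each guide, replicates merged. The blue bar is higher in all 6 pairs, by 1.18 points for sgRNA1 up to 7.67 points for sgRNA3.

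In the 3 long lists, shared peaks on chromosome 17 had higher median widths and score percentiles than peaks found with 1 guide. With sgRNA6 the median width was 926 bp for shared and 689 bp for unshared peaks, and the median score percentile 69.2 and 43.1. With sgRNA4 the values were 910 and 745 bp and percentiles of 58.0 and 43.4, and with sgRNA5 756 and 567 bp and 57.6 and 32.2. On the other chromosomes shared peaks were wider as well: 845 against 616 bp with sgRNA6, 838.5 against 652 bp with sgRNA4 and 694 against 541.5 bp with sgRNA5.

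By pair, sgRNA3 peaks on chromosome 17 overlapped sgRNA5 most, in 23 of 28 cases (82.1%, 59.5% elsewhere), ahead of sgRNA6 with 18 (64.3%, 67.7% elsewhere) and sgRNA4 with 15 (53.6%, 55.3% elsewhere). Of 91 sgRNA1 peaks, 68 overlapped sgRNA6 (74.7%, 72.8% elsewhere), 63 sgRNA5 (69.2%, 57.7% elsewhere) and 58 sgRNA4 (63.7%, 59.4% elsewhere). Of 43 sgRNA2 peaks, 37 overlapped sgRNA6 (86.0%, 79.8% elsewhere), 33 sgRNA4 (76.7%, 63.97% elsewhere) and 31 sgRNA5 (72.1%, 61.3% elsewhere). Differences of single pairs were not tested. From the other side, 590 of 1156 sgRNA4 peaks (51.0%, 48.1% elsewhere) overlapped sgRNA6, as did 400 of 628 sgRNA5 peaks (63.7%, 56.5% elsewhere). sgRNA6 peaks overlapped sgRNA4 in 23.4% of cases (19.8% elsewhere) and sgRNA5 in 15.4% (14.1% elsewhere).

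Of the 3315 regions, 783 (23.6%, 95% interval 22.2 to 25.1) were found with 2 or more guides, against 21.4% of all regions in the genome. Those with 4 or more guides numbered 72 (2.17%, 1.70 to 2.73) against 1.94%, and those with 5 or more 15 (0.452%, 0.253 to 0.745) against 0.479%. The shares with 4 or more and 5 or more guides are thus near the background. Regions found with 1 guide came mostly from the longest lists, 1822 from sgRNA6 (54.96% of all regions, 56.5% elsewhere), 515 from sgRNA4 (15.5%, 14.7% elsewhere) and 177 from sgRNA5 (5.34%, 6.82% elsewhere). sgRNA1 gave 13 (0.392%, 0.482% elsewhere), sgRNA2 1 (0.0302%, 0.117% elsewhere) and sgRNA3 4 (0.121%, 0.207% elsewhere). The commonest combination was sgRNA4 with sgRNA6, in 324 regions (9.77%, 7.98% elsewhere). It was followed by sgRNA4, sgRNA5 and sgRNA6 together in 173 (5.22%, 4.11% elsewhere).

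A peak with all 6 guides was found in 4 regions of chromosome 17 (0.121%, 95% interval 0.0329 to 0.309), against 22 of 40078 regions elsewhere (0.0549%), a share inside that interval. The first, chr17:19551005-19552773, scored 344 with sgRNA5 (rank 33 of 8345). It scored 906 with sgRNA6 (rank 162), 430.5 with sgRNA4 (rank 122), and in replicate 2 144 with sgRNA1 (rank 41), 68.1 with sgRNA2 (rank 158) and 69.8 with sgRNA3 (rank 110). No replicate 1 list had a peak there. The sgRNA5 peak there kept all 5 partner guides when 50% of both peaks had to overlap, when centres had to lie within 500 bp and among the higher scores.

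The second, chr17:39843858-39846282, scored 511 with sgRNA6 (rank 769), 256 with sgRNA4 (rank 461), 154 with sgRNA5 (rank 377), 154 with sgRNA1 (rank 29), 92.3 with sgRNA2 (rank 37) and 52.3 with sgRNA3 (rank 334). The third, chr17:57183285-57184880, scored 286 with sgRNA6 (rank 2825), 248 with sgRNA4 (rank 496), 118.6 with sgRNA5 (rank 855), 98.9 with sgRNA1 (rank 123), 61.7 with sgRNA2 (rank 238) and 80.6 with sgRNA3 (rank 71). The last, chr17:19911312-19914049, scored 866 with sgRNA6 (rank 173), 116 with sgRNA2 (rank 14), 73.2 with sgRNA4 (rank 7174), 103 with sgRNA5 (rank 1338), 58.4 with sgRNA1 (rank 809) and 60.3 with sgRNA3 (rank 200). All values of the replicated guides at these regions come from replicate 2. With the 50% overlap or the centre rule, or in the higher-scoring 50% of the lists, the sgRNA2 peak of this last region kept 4, 3 and 2 of its 5 partner guides. At the second region, when 50% of both peaks had to overlap, the sgRNA2 peak kept 2 and the sgRNA1 peak all 5 of its partner guides.

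Of the regions with 5 guides, that at chr17:20058673-20060288 was found with every guide but sgRNA3 and scored 163 with sgRNA1 (rank 27). The region at chr17:19280615-19283037 lacked sgRNA3 too and ranked 119 with sgRNA5 (score 212) and 313 with sgRNA4 (score 296). Both lie on the short arm close to 2 of the regions with 6 guides, those starting at 19551005 and 19911312. In this neighbourhood 25 of the 59 regions of the bin from 19 to 20 Mb (42.4%) were found with 2 or more guides. The share was 23.6% on the whole of chromosome 17, and this bin was singled out after its values were seen. Higher shares were found in bins with fewer regions. These were 53.8% from 57 to 58 Mb, 50% from 11 to 12 Mb and 42.9% from 53 to 54 Mb. They rest on 13, 2 and 7 regions. The bins from 27 to 28 Mb and from 26 to 27 Mb were close, at 42.2% of 45 and 41.2% of 34 regions. The remaining regions with 5 guides that the rule named were at chr17:26897668-26898974, chr17:62832520-62833911, chr17:1619193-1620593, chr17:73284809-73286079 and chr17:74067922-74069376, all without sgRNA3, and at chr17:26925379-26927201, which lacked sgRNA2.

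The highest chromosome 17 peak of sgRNA1, chr17:17401587-17402225, was found with no other guide. It ranked 4 of 96 in replicate 1 (score 296) and 3 of 1278 in replicate 2 (score 565). A second peak of sgRNA1 alone, chr17:4750776-4751488, ranked 11 in replicate 1 (score 104) and 65 in replicate 2 (score 123). In all, 4 of the 9 replicate 1 peaks of the 3 guides on chromosome 17 were in replicate 2 (44.4%, 95% interval 13.7 to 78.8), against 34.9% over the genome. sgRNA1 gave 6 of the 9 peaks, and all 4 were sgRNA1 peaks. The other 2 were shared with further guides: chr17:71228011-71229593 with sgRNA4, sgRNA5 and sgRNA6 (scores 51.7 and 96.9 in the sgRNA1 replicates) and chr17:34899880-34900712 with sgRNA6 (scores 54.7 and 63.6). The peak of sgRNA1 at chr17:9893189-9893853 ranked 12 in replicate 2 (score 243) and was absent from the replicate 1 list and from every other guide. Another high peak of sgRNA1, chr17:73780398-73781066 (score 146, rank 35 in replicate 2), overlapped low peaks of sgRNA5 (60.9) and sgRNA6 (79.5) that were not in the higher-scoring 50% of their lists.

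sgRNA2 and sgRNA3 had no chromosome 17 peak in both replicates, out of only 1 and 2 peaks in replicate 1. Over the genome, 27.6% of sgRNA2 and 41.5% of sgRNA3 replicate 1 peaks were in replicate 2. The only chromosome 17 peak of sgRNA2 replicate 1, chr17:44302546-44303041, scored 56.8 and overlapped peaks of 3 other guides. The chromosome 17 peaks of sgRNA3 replicate 1 were chr17:34478210-34478537 (score 51.8) and chr17:80455366-80455602 (score 88.6). The latter overlapped a peak of 1 other guide. The highest replicate 2 peak of sgRNA2 lies in the region with 6 guides that starts at 19911312. Its next, chr17:73936752-73937522 (score 105, rank 20), was shared with sgRNA5 alone (score 139). Its peak chr17:79826735-79828181 (score 85.3) lay in the fullest bin of the chromosome and was shared with sgRNA4, sgRNA5 and sgRNA6, where it scored 231, 76.4 and 787. For sgRNA3 the highest was chr17:8088996-8090527 (score 154, rank 7 of 382), shared with sgRNA1 (61.5), sgRNA5 (65.6) and sgRNA6 (119.4). Its peaks chr17:19090484-19092213 (score 89.2) and chr17:18963899-18966006 (score 86.6) coincided with high sgRNA5 peaks of score 300 (rank 42) and 388 (rank 22). At the latter 2, sgRNA4 and sgRNA6 scored between 53.7 and 69.8, near the floor. When 50% of both peaks had to overlap, when centres had to lie within 500 bp, or among the higher scores, the sgRNA3 peak starting at 18963899 kept 1 of its 3 partner guides. The other high sgRNA3 peaks were chr17:75755024-75756853 (score 108), which lost its only partner, sgRNA5, under the same settings, and chr17:13504585-13505143 (score 104), shared with sgRNA5 and sgRNA6.

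The highest chromosome 17 peaks of the long lists mostly ranked far lower in the other lists or were missing from them. They were picked for a high rank in their own list, which by itself favours lower ranks in the others. Over the whole lists, 53.1% of sgRNA4, 65.1% of sgRNA5 and 27.1% of sgRNA6 peaks overlapped a peak of another guide. The sgRNA5 peak chr17:46178032-46179159, second in its list with a score of 1888, scored 98.8 with sgRNA4 (rank 4151) and 181 with sgRNA6 (rank 6241). The highest sgRNA4 peak on the chromosome, chr17:3582814-3584504, scored 1712 (rank 6) and 60.5 with sgRNA6 (rank 26849), an overlap that was lost when 50% of both peaks had to overlap. The next 4 sgRNA4 peaks were found with no other guide: chr17:60869410-60871662 (1065), chr17:43059531-43060420 (742), chr17:78286961-78288367 (732) and chr17:43062119-43063229 (689). Those starting at 43059531 and 43062119 lie close to each other.

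With sgRNA6 the highest was chr17:47072430-47074408, with a score of 2052 (rank 24). It scored 215 with sgRNA4 (rank 742), 73.3 with sgRNA5 (rank 3236) and 93.0 in sgRNA1 replicate 2 (rank 165). Next came chr17:18584512-18586290 (1662), shared with sgRNA1, sgRNA4 and sgRNA5, and chr17:63483427-63484614 (1556), found with sgRNA6 alone. The peaks chr17:42580161-42581276 (1186), shared with sgRNA5, and chr17:3887885-3889157 (1134), found with sgRNA6 alone, followed. The sgRNA5 peak chr17:1642025-1642968 (431, rank 18) was found with no other guide. Where long lists overlapped on chromosome 17, the scores were only loosely related, with Spearman correlations of 0.0864 over 590 sgRNA4 peaks paired with sgRNA6, 0.131 over 282 paired with sgRNA5, and 0.196 over 400 sgRNA5 peaks paired with sgRNA6. Elsewhere they were 0.157, 0.139 and 0.163, and each pair comes from 1 library per guide.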

How the data were processed

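Each deposited list gives chromosome, start, end, name and a MACS score per peak, with no score below 50. Per the submitters' processing notes, Bowtie, Bowtie2 and MACS were used with hg19; versions and settings were not given in the sources used here. For each library separately, the authors called peaks. Read counts were not used here, so depth is unknown. Coordinates are printed counted from 1. Peaks on Y (42) were left out of shares. Replicates of a guide were merged for density and overlap. Guides, not peaks, were the units of the two-sided exact sign-flip permutation tests, called at p below 0.05, with Benjamini-Hochberg over 5 tests. Named regions were, per guide, the 5 chromosome 17 peaks of highest score (from replicate 2 where replicated), every peak in both replicates, at most 12 regions with most guides, and the fullest bins. Members, lists and rules were chosen with earlier results of these data known. Overlap calls and exact tests were checked on simulated data. Python 3.11.15, numpy 2.4.6, scipy 1.17.1 and matplotlib 3.10.9 were used. The alternatives are in the closing section.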

Additional observations from a re-analysis of the deposited data

Results flagged for a closer look

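The short arm share of chromosome 17 peaks lay above the length share in both sgRNA1 libraries, by 5.02 points in replicate 1 and 2.03 in replicate 2, and below it in both sgRNA2 libraries, by -28.3 and -4.50 points. The means differ by 19.9 points, and the difference was not tested. It rests on 6 peaks of sgRNA1 and 1 of sgRNA2 in replicate 1.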

How the results depend on the processing

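Of 73 alternative values of the comparisons, 39 stayed the same in direction and call, or close in size where nothing was tested. For the called results, leaving out a guide could not keep the call. For the short arm and score it could not give a call either, so only the direction could change. The alternatives of the test among sgRNA1, sgRNA2 and sgRNA3 could not give a call at all. The 39 thus include values that were fixed in advance in whole or in part. The 3 results called by the exact permutation test (p = 0.03125, 0.0521 adjusted over the 5 tests) kept their direction in every alternative, except for width. Width turned to -0.781 points without replicate 2 and to -3.16 among unshared peaks. That width setting, and the limit to bins with 20 or more regions (score 0.571, width 12.0 and overlap 4.22 points), were chosen after seeing the data. Without replicate 1 or replicate 2, the share over length was 3.42 to 4.80 points, short arm -9.11 to 1.41, score -0.740 to 0.752, width -0.781 to 14.9 and overlap 4.005 to 11.2. Leaving out each guide gave 4.52 to 4.85, -1.35 to 1.86, -0.0352 to 2.12, 13.4 to 15.5 and 3.98 to 5.28 points in that order, where 5 guides allow no exact p below 0.0625. With unshared peaks only, the share fell to 3.08 points. The overlap fell to 2.54 points in the 50% of higher scores and to 2.85 with centres within 500 bp. The short arm value turned to -0.868 with the higher scores, -0.0997 over occupied bins and -4.28 with unshared peaks. The densest bins held 27.9% of regions with 500 kb bins and 23.7% with 2 Mb bins. Regions with 4 or more guides fell from 72 of 3315 to 26 of 1735 among the higher scores. Shorter lists could hardly raise this count, and the share elsewhere in the genome was not computed at this setting. For each of these changes, the cause was not tested. With the replicate number as a block, the exact p among sgRNA1, sgRNA2 and sgRNA3 was 0.833, where 6 arrangements allow no p below 0.167; the labels give the number no further meaning. Of 90 alternative values for the number of partner guides at 30 named peaks, 57 were equal. These include all values of the named peaks without a partner guide. Stricter overlap or shorter lists could hardly give such peaks a partner, so their equal values were close to fixed in advance. Depth is unknown, and its part in these results was not tested.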
